A study of Homo sapiens with 6 samples.

Results

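The Hippo pathway restrains the coactivators YAP and TAZ, and 10 genes of this pathway were followed in BT-549 cells in which the long noncoding RNA NEAT1 was silenced. They comprise the output genes CYR61, CTGF and ANKRD1, the pathway regulators LATS2, AMOTL2 and AJUBA, the coactivator genes YAP1 and WWTR1 (which encodes TAZ), and the DNA-binding partners TEAD1 and TEAD4. All 10 were found by symbol among the 25545 genes of the expression table, which lists CCN1 and CCN2 under their older symbols CYR61 and CTGF. The 10 genes were chosen from known roles in the pathway with fold changes of the NEAT1siRNA against CsiRNA comparison of these same libraries already seen. Their differences between the groups are therefore given as a description. Where one of the 10 is said to be past a threshold or not, this gives its place in a fit over all genes and is not independent evidence of a difference.

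The BT-549 line was derived from a triple-negative breast cancer (TNBC), a tumour without hormone receptors or HER2 amplification, and grows as an established line of mesenchymal appearance. RNA-seq was performed on BT-549/CsiRNA cells, which received a control siRNA, and on BT-549/NEAT1siRNA cells, which received an siRNA directed at NEAT1, with 3 libraries in each group and RNA taken 48 h after transfection. Both groups were grown in RPMI1640 with fetal bovine serum and insulin. The sample titles carry the prefix tet-NEAT1 in both groups, and the treatment notes mention only transfection with siRNA. The comparison holds 1 cell line and 1 siRNA against NEAT1, whose sequence was not used here, and the spread between libraries is that between triplicate cultures.

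In the Hippo pathway, the kinases MST1 and MST2 with their adaptor SAV1 activate LATS1 and LATS2, which act with MOB1 to phosphorylate YAP and TAZ. Phosphorylated YAP and TAZ are held in the cytoplasm or degraded. When the kinases are inactive, as in spread cells under mechanical tension, YAP and TAZ enter the nucleus, bind TEAD proteins and raise transcription of CYR61, CTGF, ANKRD1 and other genes. LATS2, AMOTL2 and AJUBA are also among the genes that YAP and TAZ are known to induce, so that part of the output acts back on the pathway. In breast cancer, active YAP and TAZ are associated with growth, invasion and stem-like properties. The mRNA levels measured here do not show the phosphorylation or location of YAP and TAZ.

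TEAD proteins recognize the core motif GGAATG, and the promoter sequences of the members with an entry in the RefSeq promoter set were searched for it on both strands. Each promoter covers 250 bases before to 50 bases after an annotated start site in GRCh38.p14. The 250 bases before the start site are shown for CTGF, which held the most matches, for ANKRD1, a classical output gene with almost no reads in these cells, for AMOTL2 as a regulator, and for YAP1 as a coactivator gene with overlapping groups. Each is written 5′ to 3′ on the strand of its gene, and capitals mark GGAATG or its reverse complement CATTCC. The CTGF sequence lies at chr6:131951373-131951622 (minus strand), ANKRD1 at chr10:90921088-90921337 (minus strand), AMOTL2 at chr3:134374448-134374697 (minus strand) and YAP1 at chr11:102110197-102110446 (plus strand).
CTGF: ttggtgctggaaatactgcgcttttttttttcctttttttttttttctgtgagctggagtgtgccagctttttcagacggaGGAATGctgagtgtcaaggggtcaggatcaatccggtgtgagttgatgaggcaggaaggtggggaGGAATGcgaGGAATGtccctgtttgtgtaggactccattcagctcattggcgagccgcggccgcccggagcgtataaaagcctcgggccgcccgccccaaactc
ANKRD1: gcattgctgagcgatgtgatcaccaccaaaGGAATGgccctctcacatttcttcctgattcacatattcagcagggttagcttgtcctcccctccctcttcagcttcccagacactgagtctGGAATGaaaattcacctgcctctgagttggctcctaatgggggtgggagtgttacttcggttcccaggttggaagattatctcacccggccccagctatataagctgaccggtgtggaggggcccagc
AMOTL2: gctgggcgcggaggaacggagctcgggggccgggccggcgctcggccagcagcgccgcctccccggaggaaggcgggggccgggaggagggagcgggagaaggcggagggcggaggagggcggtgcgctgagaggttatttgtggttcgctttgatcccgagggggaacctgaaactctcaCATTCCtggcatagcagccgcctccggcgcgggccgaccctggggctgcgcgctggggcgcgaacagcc
YAP1: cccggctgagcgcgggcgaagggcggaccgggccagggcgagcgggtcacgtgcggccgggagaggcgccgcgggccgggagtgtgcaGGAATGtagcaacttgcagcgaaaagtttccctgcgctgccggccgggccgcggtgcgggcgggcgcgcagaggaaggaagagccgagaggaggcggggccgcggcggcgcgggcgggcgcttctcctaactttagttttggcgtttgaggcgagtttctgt

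In CTGF the motif began at positions -169, -104 and -95 relative to the start site. In ANKRD1 it began at -220 and -128, with an AP-1 motif (TGANTCA, where N is any base, searched on both strands) between them at -195. The single match of AMOTL2 began at -69 of 1 of its 2 start sites, that of AJUBA at -59 of 1 of its 2 start sites, that of YAP1 at -162 and that of LATS2 at 10, past the start. WWTR1 held no match at either of its 2 start sites, and CYR61, TEAD1 and TEAD4 had no entry. Counted per promoter, 6 of 10 held the motif, and counted per gene, 6 of 7. Among 34796 distinct promoters of the same length, 14.0% held at least 1 match, 1.38% at least 2 and 0.126% at least 3, and 7.73% held the AP-1 motif. Of 27305 genes with an entry, 16.7% held GGAATG at 1 or more of their start sites. These matches describe the sequence and do not show binding by a TEAD protein.

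**Figure D1:**
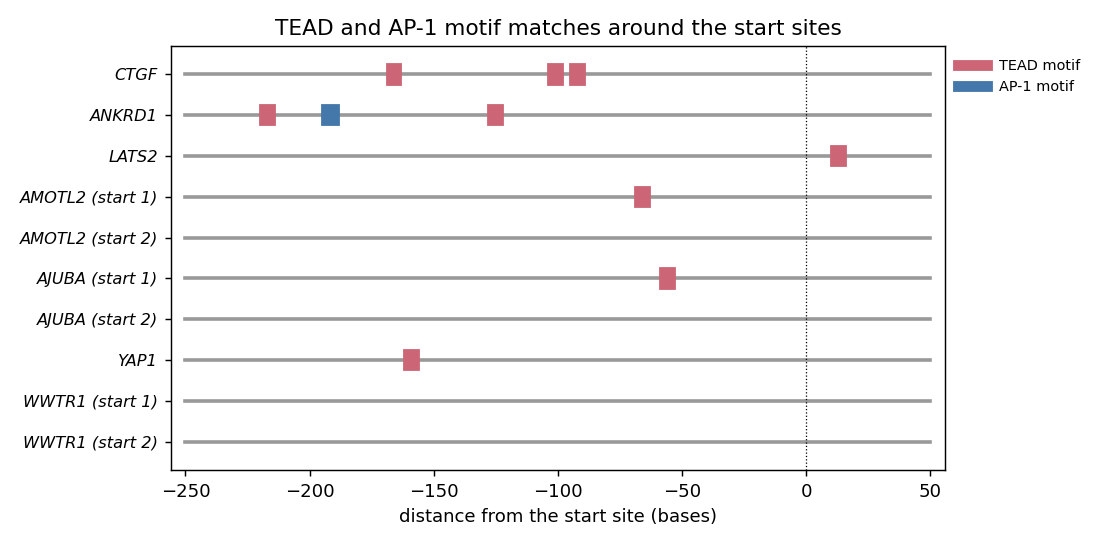
Position of TEAD motifs (red) and AP-1 motifs (blue) relative to each annotated start site (dotted line at 0), in bases, with grey lines for the 300 bases searched. CTGF carried 3 TEAD motifs and ANKRD1 carried 2 TEAD motifs and 1 AP-1 motif, and WWTR1 carried none at either start.

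Expression was given as TPM, in which reads are scaled by transcript length and then to the same total in each library, so that levels can be compared between genes. Recovered reads ran from 15787242 to 20343394 per library. NEAT1 was lower in each NEAT1siRNA library (4.36, 2.96 and 2.73 TPM) than in any CsiRNA library (13.4, 7.68 and 10.8 TPM), so 31.5% of the control mean remained. The mesenchymal markers VIM, SPARC, CDH2, FN1 and ZEB1 were expressed in all 6 libraries, of which FN1 and CDH2 were past the threshold and lower with NEAT1siRNA. Of 7 epithelial, hormone receptor and basal markers, 6 had a mean under 1 TPM, and KRT18 lay between 1.04 and 2.07 TPM. PTPRC, PECAM1, CD3E and LYZ, which mark leukocytes and endothelium, were at or near 0, and CD68 lay between 23.2 and 29.2 TPM. In 4 short noncoding RNAs lay 64.4% to 68.1% of all TPM of a library, so a change in their share shifts the TPM of every other gene. In a limma fit on log2(TPM + 1), 10721 genes with a mean of at least 1 TPM were tested at an adjusted p of 0.05. Of these, 963 were lower and 535 higher with NEAT1siRNA, or 64.3% lower among those past the threshold, and this share was 45.2% to 54.3% after quantile normalization, median centring, rescaling without the short RNAs or removal of a GC trend. The median log2 fold change of all genes was -0.04.

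CYR61 and CTGF, secreted matricellular proteins that bind integrins and are the most used readouts of YAP and TAZ, were the most abundant of the 10 genes and differed most between the groups. CYR61 measured 265, 242 and 230 TPM in BT-549/CsiRNA and 95.1, 98.7 and 85.7 TPM in BT-549/NEAT1siRNA libraries. The groups were far apart, and the highest NEAT1siRNA value lay below every CsiRNA value. The means were 246 ± 18.1 and 93.2 ± 6.68 TPM (SD, n = 3), so the level with NEAT1siRNA was 37.9% of the control level, a log2 fold change of -1.39 (SE 0.09). CTGF measured 192, 172 and 161 TPM in the control and 87.2, 93.8 and 79.9 TPM after NEAT1 silencing, again without overlap. Its means were 175 ± 15.4 and 87.0 ± 6.98 TPM, 49.7% of the control level, with a log2 fold change of -1.0 (SE 0.09). As these are bulk cultures, fewer cells expressing a gene and less RNA per cell cannot be told apart. Both genes rest on many reads, from 3735 recovered reads for CYR61 and 3567 for CTGF in the lowest library to 12258 and 8817 in the highest. CYR61 spans chr1:85580761-85584589 (plus strand) and CTGF chr6:131948176-131951372 (minus strand) in GRCh38. Exons of CTGF overlap LINC01013 on the opposite strand, which had a mean of 0.028 TPM.

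ANKRD1, a nuclear ankyrin repeat protein of muscle that serves as an output gene in many epithelial and fibroblast lines, was close to absent. It had 1, 0 and 1 recovered reads in the CsiRNA libraries and 2, 0 and 0 in the NEAT1siRNA libraries, 4 reads in all. No level was above 0.051 TPM, the gene did not enter the test, and no fold change is given. At this depth a difference in ANKRD1 was not detectable.

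**Figure D2:**
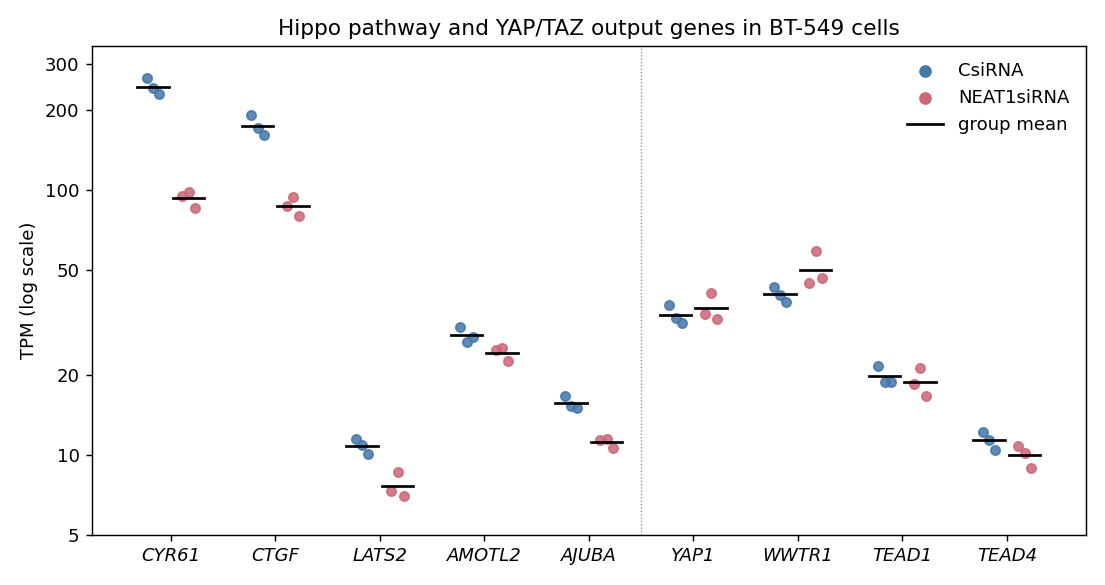
TPM of 9 genes in each library (log axis), with blue points for CsiRNA, red points for NEAT1siRNA and a black line for the mean of 3 libraries, and ANKRD1 left out because it is near 0. CYR61 and CTGF lie at or above 161 TPM in the control and at or below 98.7 TPM with NEAT1siRNA, and to the right of the dotted line the groups of YAP1, TEAD1 and TEAD4 overlap.

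The 3 regulators were lower with NEAT1siRNA, by smaller amounts than CYR61 and CTGF. LATS2, a kinase that phosphorylates YAP and TAZ, measured 11.5, 10.9 and 10.1 TPM in the control and 7.30, 8.65 and 6.98 TPM with NEAT1siRNA. Every NEAT1siRNA value lay below the CsiRNA range, at 70.5% of the control mean and a log2 fold change of -0.46 (SE 0.10). AJUBA, a LIM domain protein of cell junctions that binds LATS kinases and limits their activity, measured 16.7, 15.2 and 15.1 against 11.4, 11.5 and 10.7 TPM. Exons of AJUBA overlap an unnamed protein-coding gene on the same strand, whose reads cannot be told apart from those of AJUBA there. The AJUBA groups did not overlap, the level was 71.3% of the control mean, and the log2 fold change was -0.45 (SE 0.09). AMOTL2, an angiomotin family protein that binds YAP and activates LATS2, measured 30.4, 26.8 and 27.8 against 24.9, 25.3 and 22.6 TPM. Here the gap was narrow, since the highest NEAT1siRNA value came within 1.48 TPM of the lowest CsiRNA value. The AMOTL2 level was 85.7% of the control mean, with a log2 fold change of -0.21 (SE 0.09), and it did not pass the threshold. AJUBA, which restrains LATS kinases, and LATS2 and AMOTL2, which restrain YAP and TAZ, thus have opposite roles toward the coactivators while being lower in the same libraries. Exons of AMOTL2 overlap the pseudogene RPL39P5, whose reads cannot be told apart from those of AMOTL2 there.

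The coactivator genes did not share this direction. YAP1 measured 36.8, 32.8 and 31.4 TPM in BT-549/CsiRNA and 34.0, 41.0 and 32.5 TPM in BT-549/NEAT1siRNA libraries. The groups overlapped, with means of 33.6 ± 2.80 and 35.8 ± 4.53 TPM and a log2 fold change of 0.08 (SE 0.10). Leaving out NEAT1siRNA replicate 2, the highest library, gave -0.01. Exons of YAP1 overlap 2 unnamed long noncoding RNAs on the opposite strand. WWTR1 measured 43.1, 40.2 and 37.9 TPM in the control and 44.7, 59.0 and 46.6 TPM with NEAT1siRNA. All 3 NEAT1siRNA values lay above the CsiRNA range, the closest by 1.61 TPM, and the level was 124% of the control mean. The log2 fold change of WWTR1 was 0.29 (SE 0.10), which did not pass the threshold, whereas it did in 9 of 17 other settings. Here too replicate 2 of NEAT1siRNA set the size, as the log2 fold change was 0.17 without it and 0.37, past the threshold, without NEAT1siRNA replicate 1. The summed level of YAP1 and WWTR1 ran from 69.3 to 79.9 TPM in the control and from 78.7 to 100 TPM after NEAT1 silencing. WWTR1-AS1, whose exons overlap WWTR1 on the opposite strand, had a mean of 0.25 TPM.

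TEAD1 and TEAD4, transcription factors that carry YAP and TAZ on DNA, overlapped between the groups. TEAD1 measured 21.7, 18.9 and 18.8 against 18.6, 21.4 and 16.7 TPM, with a log2 fold change of -0.07 (SE 0.10) whose sign turned in 3 of 17 other settings. TEAD4 measured 12.2, 11.4 and 10.4 against 10.9, 10.2 and 8.94 TPM, with a log2 fold change of -0.17 (SE 0.10). The 4 TEAD genes together reached 68.3 to 75.9 TPM in every library. TEAD2 supplied the largest part, 50% to 53.1% of the TEAD sum in the control and 54.7% to 58.5% with NEAT1siRNA, followed by TEAD1 with 24.3% to 29.6%, TEAD4 with 13.0% to 16.7% and TEAD3 with 3.69% to 4.60%. The 2 TEAD genes followed here therefore make up less than the TEAD2 share alone in each library.

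Ratios between genes of the same library do not depend on the scaling of the library. They can still carry the GC trend of a library, described below, where the genes compared differ in GC content. The ratio of CYR61 to YAP1 was 7.22, 7.40 and 7.32 in the control and 2.80, 2.41 and 2.64 with NEAT1siRNA. For CTGF to YAP1 it was 5.21, 5.25 and 5.13 against 2.57, 2.29 and 2.46. Both output genes were thus lower relative to the mRNA of the coactivator in each NEAT1siRNA library, with a spread between replicates that was small beside the gap. CYR61 was also lower relative to CTGF, with ratios of 1.39, 1.41 and 1.42 against 1.09, 1.05 and 1.07. The ratio of WWTR1 to YAP1 was 1.17, 1.23 and 1.21 in the control and 1.32, 1.44 and 1.43 with NEAT1siRNA, so the ratio was higher in all 3 NEAT1siRNA libraries than in any control.

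The regulators were lower relative to their paralogs as well. The transcripts compared differ in GC content, at 51.8% for LATS2 and 39.0% for LATS1. It was 52.6% for AJUBA and 48.2% for LIMD1, and 56.3% for AMOTL2 and 48.8% for AMOTL1. The ratio of LATS2 to LATS1, the other LATS kinase, was 0.694, 0.757 and 0.734 in the control and 0.546, 0.547 and 0.568 with NEAT1siRNA. For AJUBA to LIMD1, a related LIM protein, it was 1.49, 1.45 and 1.58 against 1.14, 1.23 and 1.15. For AMOTL2 to AMOTL1 the groups were closer, at 2.93, 2.86 and 2.96 against 2.62, 2.66 and 2.61, and still did not overlap. The log2 fold changes of the paralogs themselves were -0.10 (SE 0.10) for LATS1, -0.11 (SE 0.09) for LIMD1, -0.14 (SE 0.10) for WTIP, another LIM protein, and -0.07 (SE 0.09) for AMOTL1, and none passed the threshold. The signs of LIMD1, WTIP and AMOTL1 each turned in 2 of the other settings.

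**Figure D3:**
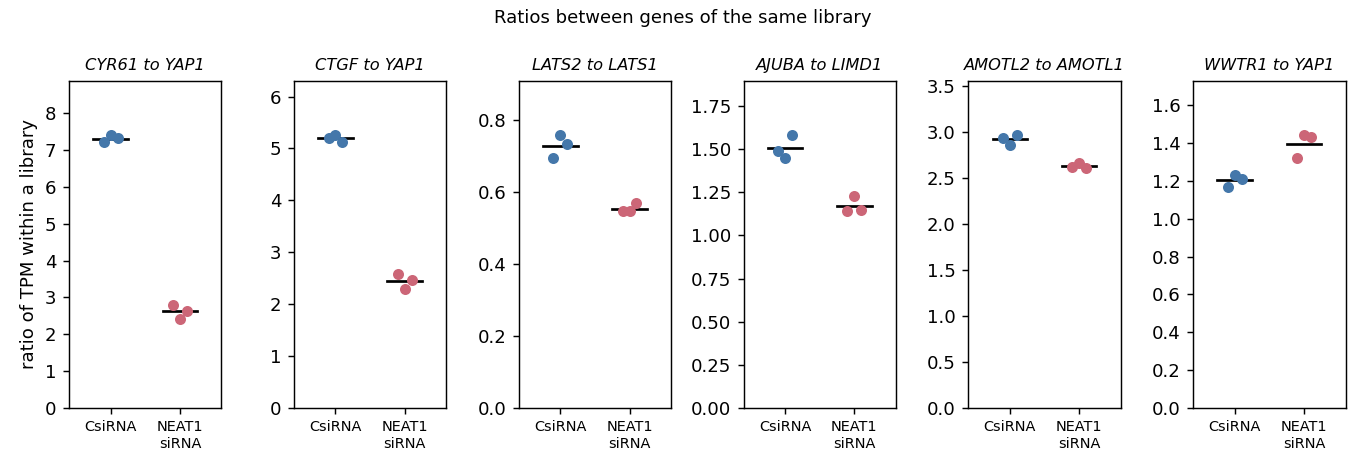
Ratio of the TPM of 2 genes within each library (y axis from 0, no unit), with blue points for CsiRNA, red points for NEAT1siRNA and black lines for group means. CYR61 to YAP1 has means of 7.31 and 2.61 and WWTR1 to YAP1 means of 1.2 and 1.4, and the groups overlap in no panel.

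Ordered by level in the control, the genes ran CYR61, CTGF, WWTR1, YAP1, AMOTL2, TEAD1, AJUBA, TEAD4, LATS2 and ANKRD1. The only neighbours in this order whose ranges overlapped were TEAD4 and LATS2. The order of the means was the same with NEAT1siRNA, and there CYR61 overlapped CTGF, AJUBA overlapped TEAD4, and LATS2 stood apart from TEAD4. The fold between the highest gene and its neighbour, CYR61 to CTGF, had a mean of 1.41 in the control and 1.07 with NEAT1siRNA.

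Of the 9 genes tested, 4 were past the threshold and lower (CYR61, CTGF, AJUBA and LATS2), beside 8.98% of all genes tested, and 0 were past it and higher, beside 4.99%. With voom on recovered reads the same 4 were lower, beside 12.0% of all genes, and 1 (WWTR1) was higher, beside 11.1%. All 3 libraries with NEAT1siRNA were below every control library for 5 of 9 genes, beside 19.3% of all genes, and above it for 1 of 9, beside 11.0%. The median log2 fold change of the 9 genes was -0.21. Since the same comparison was known when the genes were chosen, these shares describe the choice and nothing is read from them.

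Some libraries were the highest or lowest of their group for most genes tested, and also for most of the genes described. CsiRNA replicate 1 was the highest control library for 9 of 9 genes, as it was for 71.7% of all genes tested, and CsiRNA replicate 3 was the lowest for 8 of 9, beside 59.0% of all. In the NEAT1siRNA group, replicate 2 was the highest for 8 of 9 (59.5% of all genes) and replicate 3 the lowest for 8 of 9 (60.7% of all genes). The libraries also differed in how their values followed the GC content of transcripts. The Spearman correlation of a gene's deviation in a library with its GC content was taken over 10424 genes. It was 0.68, -0.73 and 0.14 in NEAT1siRNA replicates 1, 2 and 3, and -0.21, -0.34 and 0.47 in CsiRNA replicates 1, 2 and 3. These values are a description across genes that are not independent. YAP1, WWTR1 and TEAD1 have transcripts of 43.5%, 42.2% and 43.0% GC, whereas CYR61, CTGF, LATS2, AJUBA, AMOTL2 and TEAD4 range from 50.5% to 60.4%. With the trend on GC content and length removed, the log2 fold changes were -1.32 for CYR61, -0.93 for CTGF, -0.37 for LATS2, -0.36 for AJUBA, -0.14 for AMOTL2, 0.13 for YAP1 and 0.33 for WWTR1. CYR61 and CTGF still had the largest differences of the 9 genes in this setting, and AMOTL2, YAP1 and WWTR1 went past the threshold there. Far more genes of all kinds passed in this setting, 3468 of 10424 tested, against 1498 of 10721 as reported.

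**Figure D4:**
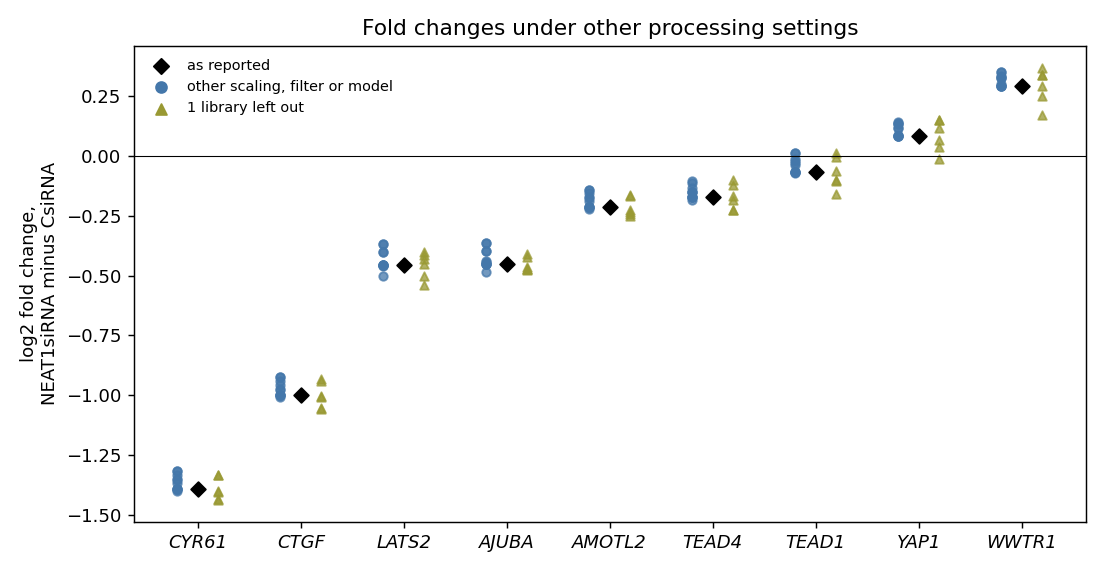
Log2 fold change (NEAT1siRNA minus CsiRNA) of 9 genes as reported (black diamonds), under 11 other scalings, filters or models (blue circles) and with 1 library left out (6 olive triangles). CYR61 stays between -1.44 and -1.32 and CTGF between -1.06 and -0.93, and the points of YAP1 and TEAD1 lie on both sides of 0.

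Other genes of the pathway were taken from lists written with earlier results of these data known. Among 17 further genes of a known YAP and TAZ output signature, 15 were tested. In limma 6 fell and 0 rose, beside 8.98% and 4.99% of all genes. At an unadjusted p under 0.05, 6 were lower and 0 higher, and the share of all genes at that p was not computed. With voom on recovered reads 6 fell and 1 rose (RBMS3), beside 12.0% and 11.1% of all genes. Among the 15, the median log2 fold change was -0.14. NUAK2, an AMPK-related kinase, fell the most, from 7.23, 6.89 and 6.71 to 3.90, 3.96 and 3.83 TPM, a log2 fold change of -0.70 (SE 0.09, limma adjusted p = 9.87e-06). NT5E, the ectonucleotidase CD73, fell from 214, 210 and 188 to 129, 155 and 133 TPM, a log2 fold change of -0.56 (SE 0.09, limma adjusted p = 0.000145). FJX1 (-0.55, SE 0.09, limma adjusted p = 0.000232) and GADD45A, a stress-induced growth arrest gene (-0.51, SE 0.10, limma adjusted p = 0.00102), fell as well, though GADD45A did not pass the threshold with no filter on TPM (limma adjusted p = 0.0528). TGFB2 (-0.38) and DOCK5 (-0.33) also passed the threshold, but neither did without CsiRNA replicate 1 (limma adjusted p = 0.0849 and 0.124) or without NEAT1siRNA replicate 3 (0.0864 and 0.115), nor with no filter on TPM (0.126 and 0.102). The remaining 9 output genes did not pass the threshold, among them the abundant genes IGFBP3 at 252 to 290 TPM, MYOF at 76.9 to 101 TPM and CRIM1 at 53.3 to 73.1 TPM. Not passing the threshold does not show an unchanged level. Of the 15, 12 had a negative log2 fold change and 3 a positive one, beside 6507 and 4214 of all genes tested. F3 and FOXF2 were under 1 TPM and were not tested. In the RefSeq promoters, 5 of 12 output genes with an entry held GGAATG (AXL, FOXF2, NUAK2, PTPN14 and TGFB2), beside 16.7% of all genes with an entry, a description of the sequence only.

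Of the kinases and their adaptors, 19 of 20 genes were tested. In limma 2 fell and 0 rose, beside 8.98% and 4.99% of all genes. At an unadjusted p under 0.05, 4 were lower and 1 was higher, and the share of all genes at that p was not computed. With voom on recovered reads 4 fell and 2 rose (MOB1A and MAP4K3), beside 12.0% and 11.1% of all genes. Among the 19, the median log2 fold change was -0.10. NF2, the membrane-linked tumour suppressor that recruits LATS kinases, fell from 46.5, 43.7 and 40.9 to 32.0, 30.8 and 29.4 TPM, a log2 fold change of -0.49 (SE 0.09, limma adjusted p = 0.000508). TAOK3, a kinase that acts on MST kinases, fell from 2.47, 2.43 and 2.35 to 1.75, 1.78 and 1.83 TPM (log2 fold change -0.30, SE 0.09, limma adjusted p = 0.0359). TAOK3 did not pass the threshold when any single library other than NEAT1siRNA replicate 2 was left out (limma adjusted p 0.0716 to 0.107), nor with no filter on TPM (0.0752). The MST kinase genes STK3 (0.15) and STK4 (-0.14), SAV1 (0.05), LATS1 (-0.10), MOB1A (0.27) and MOB1B (0.04), whose log2 fold changes are given, did not pass it.

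Of 25 junction, polarity and STRIPAK genes, 21 were tested. In limma 1 fell and 1 rose, beside 8.98% and 4.99% of all genes, and the median log2 fold change was -0.0034. At an unadjusted p under 0.05, 2 were lower and 1 was higher, and the share of all genes at that p was not computed. With voom on recovered reads 1 fell and 2 rose (AMOT and DLG1), beside 12.0% and 11.1% of all genes. FAT1, a giant cadherin, fell from 32.9, 23.3 and 23.4 to 20.4, 18.4 and 16.2 TPM (log2 fold change -0.50, SE 0.11, limma adjusted p = 0.00426). CsiRNA replicate 1 stood above the other controls, and without it the FAT1 log2 fold change was -0.34 (limma adjusted p = 0.0685). With no filter on TPM, FAT1 did not pass the threshold either (limma adjusted p = 0.145). AMOT, the angiomotin paralog of AMOTL2, rose from 1.63, 1.35 and 1.42 to 2.0, 2.13 and 2.0 TPM (log2 fold change 0.31, SE 0.10, limma adjusted p = 0.0341). Its adjusted p lay between 0.0531 and 0.119 when any 1 library other than CsiRNA replicate 1 was left out, and was 0.0865 with no filter on TPM. AMOT and AMOTL2 thus differed in direction, and AMOT had a control mean of 1.46 TPM beside 28.3 TPM for AMOTL2.

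Among the nuclear partners, 5 of 6 were tested. In limma 0 fell and 0 rose, beside 8.98% and 4.99% of all genes. With voom on recovered reads 0 fell and 2 rose (TEAD2 and VGLL4), beside 12.0% and 11.1% of all genes. The same 2 were higher at an unadjusted p under 0.05, and the share of all genes at that p was not computed. The median log2 fold change was 0.12. TEAD2 measured 36.7, 35.5 and 36.3 against 42.6, 41.5 and 40.1 TPM (log2 fold change 0.19, SE 0.09, limma adjusted p = 0.157), without overlap. It passed the threshold in 6 of 17 other settings, all of which change the scaling or remove the GC trend. VGLL4, a cofactor that competes with YAP for TEAD proteins, measured 6.19, 5.50 and 5.47 against 6.78, 7.27 and 6.47 TPM (log2 fold change 0.22, limma adjusted p = 0.117). TEAD3 had a log2 fold change of 0.12 (SE 0.10). NOV, the CCN family member CCN3 and a paralog of CYR61 and CTGF, rose from 5.91, 5.36 and 5.04 to 6.52, 7.88 and 6.82 TPM (log2 fold change 0.33, SE 0.10, limma adjusted p = 0.0271). The other CCN genes WISP1, WISP2 and WISP3 had a mean under 1 TPM. NOV did not pass the threshold in 5 of 15 other settings, among them the omission of CsiRNA replicate 2, CsiRNA replicate 3, NEAT1siRNA replicate 2 or NEAT1siRNA replicate 3 (limma adjusted p 0.0582 to 0.102). Over the 60 tested of 68 other pathway genes, 9 fell and 1 rose, with a median of -0.08, beside 8.98% and 4.99% of all genes. With voom on recovered reads 11 of the 60 fell and 7 rose, beside 12.0% and 11.1% of all genes.

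**Figure D5:**
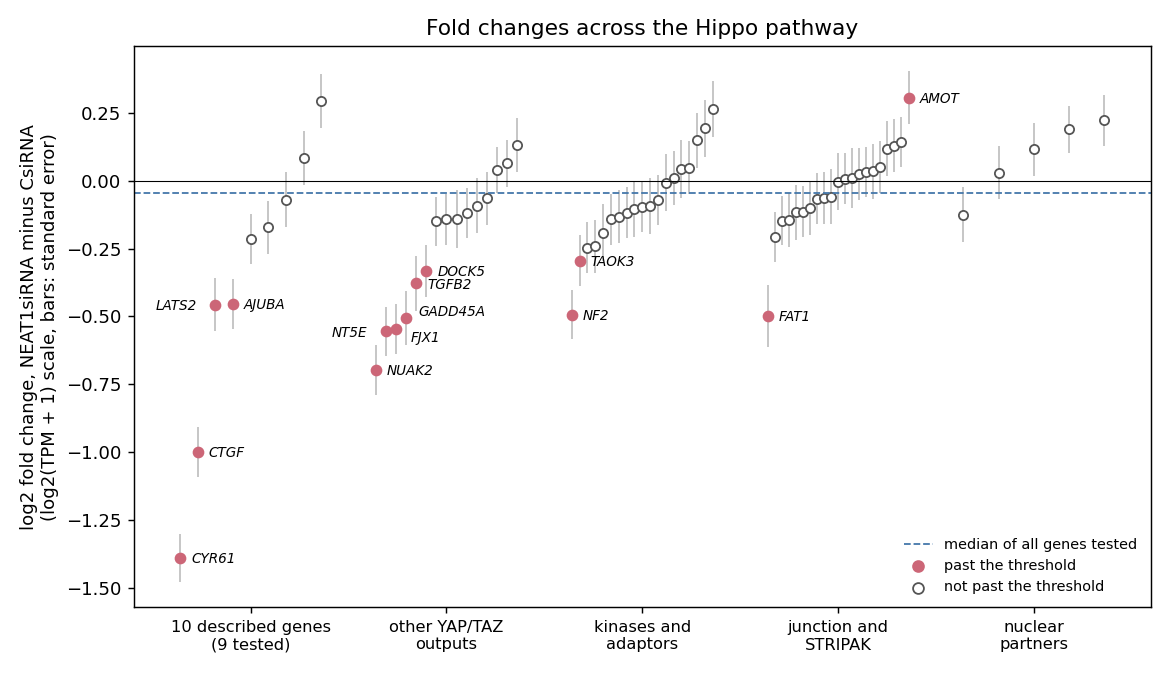
Log2 fold change (NEAT1siRNA minus CsiRNA, on the log2(TPM + 1) scale) with its standard error for the genes described and 4 lists of other pathway genes, red where past the threshold and white where not. CYR61 (-1.39) and CTGF (-1.0) lie lowest, 6 of 15 further outputs are red, and no nuclear partner is, beside a dashed line at the median of all genes (-0.04).

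The genes whose profile over the 6 libraries was nearest to that of CYR61, by the root mean square difference of log2(TPM + 1) minus the control mean, were NCEH1 (0.133), STX2 (0.148), HAS3 (0.177), PPIF (0.188) and AMIGO2 (0.189). NCEH1, a cholesterol ester hydrolase, measured 72.7, 68.5 and 58.5 against 23.9, 31.3 and 25.6 TPM, and HAS3, a hyaluronan synthase, 21.7, 20 and 18.6 against 8.88, 8.99 and 7.85 TPM. Even the nearest gene had a smaller log2 fold change (-1.28) than CYR61. CTGF had closer neighbours, namely ADAMTS1 (0.0264), SHISA2 (0.0421), TNFRSF10B (0.0653), DCP2 (0.0694) and CXCL1 (0.0697). ADAMTS1, a secreted matrix protease, measured 14.0, 12.0 and 11.5 against 5.72, 6.19 and 5.0 TPM, and the chemokine CXCL1 240, 235 and 224 against 121, 130 and 115 TPM. None of these 10 genes belongs to the pathway lists used here. Those lists hold 60 of the 10721 genes tested, beside the 9 described, so nothing is read from this.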

How the data were processed

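RNA-seq compared BT-549 cells with NEAT1siRNA and with CsiRNA (3 libraries each). The authors used TruSeq Stranded mRNA libraries, STAR with GRCh38, and DESeq2 for their own comparison. The deposited table gives TPM per gene and library, without depth. The strand setting of the counting and the tool that made the TPM are not given in the sources used here. The authors also deposited a mean normalized count per gene (a signal averaged over 6 libraries), beside fold changes and p-values that were not used. Joining both recovered reads per gene. Where the mean normalized count was under 5, 99.8% of these were whole to within 0.05. Where that count was 500 or more, 13.5% were, so recovered reads of abundant genes are approximate.

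Genes averaging 1 TPM or more were compared on log2(TPM + 1) with limma 3.58.1 (lmFit, eBayes with trend, R 4.3.3) and Benjamini-Hochberg adjustment at 0.05. Fold changes on this scale understate those of low genes. With 3 libraries against 3, an exact permutation test cannot go below p = 0.1. Replicates of a group differed by more than counting noise (chi-square statistic over its degrees of freedom 5.02 to 16.1). GC content, length and positions came from GENCODE release 44, and promoters from RefSeq. Python 3.11.15, pandas 2.3.3, numpy 2.4.6, scipy 1.17.1 and matplotlib 3.10.9 were used.

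The 10 genes and all lists were chosen with earlier results of these data known. Named were all 10, NEAT1, up to 4 genes with the largest change past the threshold in each list, every paralog with a mean of 1 TPM or more, and the 5 nearest profiles to CYR61 and to CTGF. TGFB2, DOCK5, VGLL4, RBMS3, MAP4K3, DLG1, genes listed as not past the threshold and markers were named outside this rule, after their values were seen. The other settings were a pseudocount of 0.1, no filter, a minimum mean of 5 TPM, quantile normalization, median centring, TPM rescaled without RN7SK, RN7SL1, RN7SL2 and RPPH1, eBayes without trend, a replicate block, removal of a GC and length trend (splines, 4 degrees of freedom) alone and with the block, voom on recovered reads, and each library left out.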

Additional observations from a re-analysis of the deposited data

How the results depend on the processing

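The 10 genes were chosen with this comparison known, so the settings show how their values depend on the processing of the same 6 libraries and are no further test. CYR61, CTGF and AJUBA were lower and past the threshold in all 17 other settings, and LATS2 in 16, the exception being no filter on TPM. The number of these genes past the threshold was 4 of the 9 tested as reported. With the GC and length trend removed it was 7, AMOTL2, YAP1 and WWTR1 being added. That removal with the replicate block also gave 7, with TEAD4 (lower) in place of YAP1. Leaving out 1 library gave 4 to 5. Of all genes tested, 1498 of 10721 passed the threshold as reported and 505 of 18531 with no filter. Quantile normalization gave 2191 and voom 2472 of 10721. With the GC and length trend removed 3468 of 10424 passed, and 3390 with the replicate block as well. With 1 library left out 759 to 2083 of 10721 passed (759 without CsiRNA replicate 1, 838 without NEAT1siRNA replicate 3). Of the other pathway genes, 10 of the 60 tested passed as reported, 4 with no filter and 16 after quantile normalization. With the GC and length trend removed 21 passed, 19 with the replicate block as well, 18 with voom, and 6 to 11 with 1 library left out. These counts stand beside those of all genes in the same setting, and nothing is read from them. The cause of these moves was not tested.

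Deviations of same-numbered libraries correlated at -0.03, 0.251 and -0.107 for replicates 1, 2 and 3, and those of differently numbered libraries at -0.40 to 0.40. These values also carry the GC trend of each library, so they cannot tell whether the cultures were paired. With the replicate block 1640 genes and 5 of the 9 genes passed, WWTR1 being added. Lower genes made up 52.1% of those past the threshold with no filter, 50.6% after quantile normalization, 45.2% after median centring, 54.3% without the short RNAs, 50.9% with the GC trend removed, 50.4% with the block as well and 51.9% with voom. With 4 reads in all, ANKRD1 could not be compared at this depth.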

Other observations

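SRF and its MRTF coactivators form the other transcription pathway that responds to actin tension and shares targets with YAP and TAZ. Of 16 genes in a list of SRF, MRTF and their targets, 14 were tested, 2 fell and 1 rose, beside 8.98% and 4.99% of all genes, and the median log2 fold change was 0.02. VCL, the focal adhesion protein vinculin, fell from 56.7, 51.3 and 50.9 to 41.0, 41.0 and 36.4 TPM (log2 fold change -0.42, SE 0.09, limma adjusted p = 0.0029). FLNA, an actin crosslinker, fell from 286, 236 and 257 to 223, 196 and 181 TPM (-0.38, SE 0.09, limma adjusted p = 0.00777), but did not pass the threshold without CsiRNA replicate 1 (limma adjusted p = 0.0951) or without NEAT1siRNA replicate 3 (0.0805), nor with no filter on TPM (0.118). MYL9, a myosin light chain, rose from 6.01, 5.33 and 6.15 to 9.99, 8.71 and 9.22 TPM (0.59, SE 0.10, limma adjusted p = 0.000118). SRF itself measured 11.6, 11.5 and 12.0 against 11.4, 9.98 and 10.3 TPM, and TAGLN 12.0, 11.0 and 11.4 against 13.4, 12.5 and 12.8 TPM, neither past the threshold.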
